A study of Mus musculus with 6 samples.

Results

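The Reg family of mouse comprises small secreted proteins of the C-type lectin fold. The members studied here were Reg1, Reg2, Reg3a, Reg3b, Reg3d and Reg3g, 6 of the 18193 genes to which the platform annotation gave at least 1 probe set of their own. They were taken as all probe sets assigned to these symbols alone, which gave 7 of 34945 such probe sets: 1 for each gene and 2 for Reg3b. All 7 passed the filter on dim probe sets. The family was chosen by its log2(signal + 1) values over the 6 arrays and the 3 dose groups, so its levels and the differences between groups are given as a description, and no test of them is offered as support.

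The arrays measured RNA of pancreatic islets from wild-type male offspring of the OF-1 mouse strain at postnatal day 30. These offspring had been exposed before birth to vehicle (the group vehicle), or to bisphenol-A at 10 µg/kg/day (BPA10) or 100 µg/kg/day (BPA100), between gestation days 9 and 16. Each group had 2 arrays, numbered as in the labels. Vehicle replicate 1 carried RNA of 5 mice and vehicle replicate 2 that of 1 mouse, BPA10 replicate 1 that of 1 mouse and BPA10 replicate 2 that of 2 mice, and each BPA100 array that of 1 mouse. Litters are not named in the labels, so the spread between arrays mixes animals and pools.

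Reg proteins are made in large amounts by pancreatic acinar cells, which secrete the digestive enzymes, and, for some members, by the epithelium of the gut. Reg1 and Reg2 encode the lithostathines, also called pancreatic stone proteins. Reg3b encodes the pancreatitis-associated protein, which is induced in injured acinar cells, and Reg3g encodes an antibacterial lectin that binds the cell wall of Gram-positive bacteria. Reg3d is related to the hamster islet neogenesis-associated protein. Reg transcripts also rise in islets under inflammation and during regeneration, where cytokines of the interleukin-6 and interleukin-22 families act through the transcription factor STAT3.

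The members lie next to each other on mouse chromosome 6, in the order Reg3b, Reg3d, Reg3a, Reg2, Reg1 and Reg3g, with 1 pseudogene, Gm52853, as the only other annotated gene in between. Their promoters are shown because the members moved together over the arrays. The sequences are RefSeq's, of build GRCm38.p6, from 250 bases before to 50 bases after the annotated start of transcription, and all 6 members matched. Reg1 and Reg2 represent the lithostathines, and Reg3b and Reg3g are the pair with the most similar promoters. Capitals mark every match, on either strand, to the motifs TATAAA (the core promoter box bound by TBP), TTCNNNGAA (STAT factors), CACCTG (an E-box), TGGGAA (the notch-pathway factor RBPJ and its acinar relative RBPJL), TTGCNNAA (C/EBP factors) and CAGCTG (another E-box).
Reg1 (chr6:78425733-78426032, plus strand): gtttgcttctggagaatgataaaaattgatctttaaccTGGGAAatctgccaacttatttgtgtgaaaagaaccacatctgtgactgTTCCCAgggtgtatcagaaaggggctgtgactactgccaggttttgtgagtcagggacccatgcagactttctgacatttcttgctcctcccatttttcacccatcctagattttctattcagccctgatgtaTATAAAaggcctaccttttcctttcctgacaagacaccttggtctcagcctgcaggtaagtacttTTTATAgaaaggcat
Reg2 (chr6:78404905-78405204, plus strand): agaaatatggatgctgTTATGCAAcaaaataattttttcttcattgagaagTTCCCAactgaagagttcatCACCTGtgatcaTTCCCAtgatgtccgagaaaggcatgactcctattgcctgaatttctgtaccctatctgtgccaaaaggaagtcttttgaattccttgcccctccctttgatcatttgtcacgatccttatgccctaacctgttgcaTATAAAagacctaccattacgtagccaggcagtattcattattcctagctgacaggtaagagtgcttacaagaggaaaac
Reg3b (chr6:78370635-78370934, plus strand): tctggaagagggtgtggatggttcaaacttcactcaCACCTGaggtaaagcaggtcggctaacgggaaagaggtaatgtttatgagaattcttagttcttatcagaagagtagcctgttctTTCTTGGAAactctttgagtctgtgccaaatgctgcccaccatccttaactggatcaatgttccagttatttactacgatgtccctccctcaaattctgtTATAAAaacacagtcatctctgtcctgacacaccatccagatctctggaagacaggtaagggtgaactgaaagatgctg
Reg3g (chr6:78468825-78469124, minus strand): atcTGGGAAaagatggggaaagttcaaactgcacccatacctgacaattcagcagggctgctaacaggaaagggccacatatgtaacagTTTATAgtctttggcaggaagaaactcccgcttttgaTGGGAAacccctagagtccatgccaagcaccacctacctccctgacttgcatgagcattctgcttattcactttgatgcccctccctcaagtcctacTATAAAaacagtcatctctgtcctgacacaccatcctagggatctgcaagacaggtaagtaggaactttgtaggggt

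A TATAAA match stood 27 to 30 bases before the start in Reg1, Reg2, Reg3b and Reg3g, and none was present in the windows of Reg3a and Reg3d. TATAAA thus occurred in 4 of 6 members, against 13.6% of all 32851 promoters in the table. CACCTG occurred in 4 of 6, namely Reg2, Reg3a, Reg3b and Reg3d, against 20.2% of all promoters. TGGGAA occurred in 5 of 6, all but Reg3b, against 25.6%. TTCNNNGAA was present in Reg3b and Reg3d (8.3% of all promoters), where the Reg3d match overlaps a TGGGAA match, and TTGCNNAA in Reg2 and Reg3a (10.8%). CAGCTG was in 0 of 6, against 16.3%. Identity over the whole aligned window was 49.9% to 69.0% in the 15 pairs of members, highest for Reg3b and Reg3g and next for Reg1 and Reg2 (58.5%). The members descend from common ancestors, so shared letters in their promoters are not independent.

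The deposited values are linear signals with the same trimmed mean of 150 on every array. Median signals were 33 to 40 and the highest 11218 to 15158. The top of the scale differed between arrays. Signals of 5 digits numbered 5 and 1 on the vehicle arrays, 46 and 26 on the BPA10 arrays, and 34 and 5 on the BPA100 arrays. The part of this in the differences of bright genes was not tested. Pairs of arrays correlated at 0.945 to 0.975 over the 27022 probe sets that were tested, and arrays of a group at 0.968. The 10 measured endocrine marker genes of islets had signals of 770 or more on every array, and the brightest of these were Ppy, Iapp, Gcg and Sst. Ins1 and Mafa of that list had no probe set of their own, so neither was read. Ins2 was read by 1 probe set, with signals of 2680 to 4873, so this order says little about insulin. The 25 measured acinar enzyme and secretory genes were bright as well: their summed signal was 162416 and 78613 on the vehicle arrays, 229576 and 203384 on the BPA10 arrays, and 207489 and 110744 on the BPA100 arrays. By its brightest probe set no gene of this list was at 0. Endocrine genes summed to 55131 and 58930 on the vehicle arrays, 72499 and 69351 on the BPA10 arrays and 70257 and 58744 on the BPA100 arrays. The sums cover 25 acinar and 10 endocrine genes, the latter without Ins1, so they do not compare acinar with endocrine RNA. In such bulk samples fewer cells of a type and less RNA per cell cannot be told apart.

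Reg1 was the brightest member. Its signal was 9044 and 3579 on the vehicle arrays, 12126 and 11126 on the BPA10 arrays, and 11351 and 5718 on the BPA100 arrays. It ranked between 14th and 18th of 45037 probe sets on vehicle replicate 1, both BPA10 arrays and BPA100 replicate 1, but stood at position 366 on vehicle replicate 2 and 140 on BPA100 replicate 2. The same rank of 14 went with 9044 on vehicle replicate 1 and with 11126 on BPA10 replicate 2. Signals this close to the top of the scale may be compressed, which was not tested.

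Reg2 had signals of 7547 and 390 on the vehicle arrays, 10570 and 8025 on the BPA10 arrays, and 3341 and 2619 on the BPA100 arrays. Vehicle replicate 2 was the lowest of the 6 arrays, while vehicle replicate 1 lay above both BPA100 arrays and below both BPA10 arrays. The arrays of BPA10 and of BPA100 were each close together, with a ratio between replicates of 1.32 and 1.28, against 19.3 between the vehicle arrays.

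Reg3b was measured by a pair of probe sets. The brighter gave 4790 and 326 on the vehicle arrays, 10721 and 5763 on the BPA10 arrays, and 1798 and 2966 on the BPA100 arrays. The dimmer, whose identifier marks probes shared by more than 1 transcript, gave 3435 and 138, 10343 and 3687, and 733 and 1261 on the same vehicle, BPA10 and BPA100 arrays. Both probe sets showed the same order of arrays, with BPA10 replicate 1 highest and vehicle replicate 2 lowest. In contrast to Reg1, Reg3b was lower on BPA100 replicate 1 than on BPA100 replicate 2 by both probe sets.

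Reg3g, the dimmest member, had signals of 403 and 3 on the vehicle arrays, 1119 and 164 on the BPA10 arrays, and 75 and 76 on the BPA100 arrays. Its signal of 3 on vehicle replicate 2 placed it at position 40954 of 45037, at the dim end of the array. The BPA100 arrays gave nearly the same value, while the BPA10 arrays differed 6.79-fold.

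Reg3a had signals of 1869 and 24 on the vehicle arrays, 3674 and 1902 on the BPA10 arrays, and 222 and 95 on the BPA100 arrays. Reg3d had 1628 and 78 on the vehicle arrays, 2474 and 1670 on the BPA10 arrays, and 537 and 122 on the BPA100 arrays. For both genes vehicle replicate 1 was close to BPA10 replicate 2, vehicle replicate 2 was the lowest array, and the BPA100 arrays stood in between. Because the members are related in sequence, some signal may be shared between their probes, and this was not tested.

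**Figure D1:**
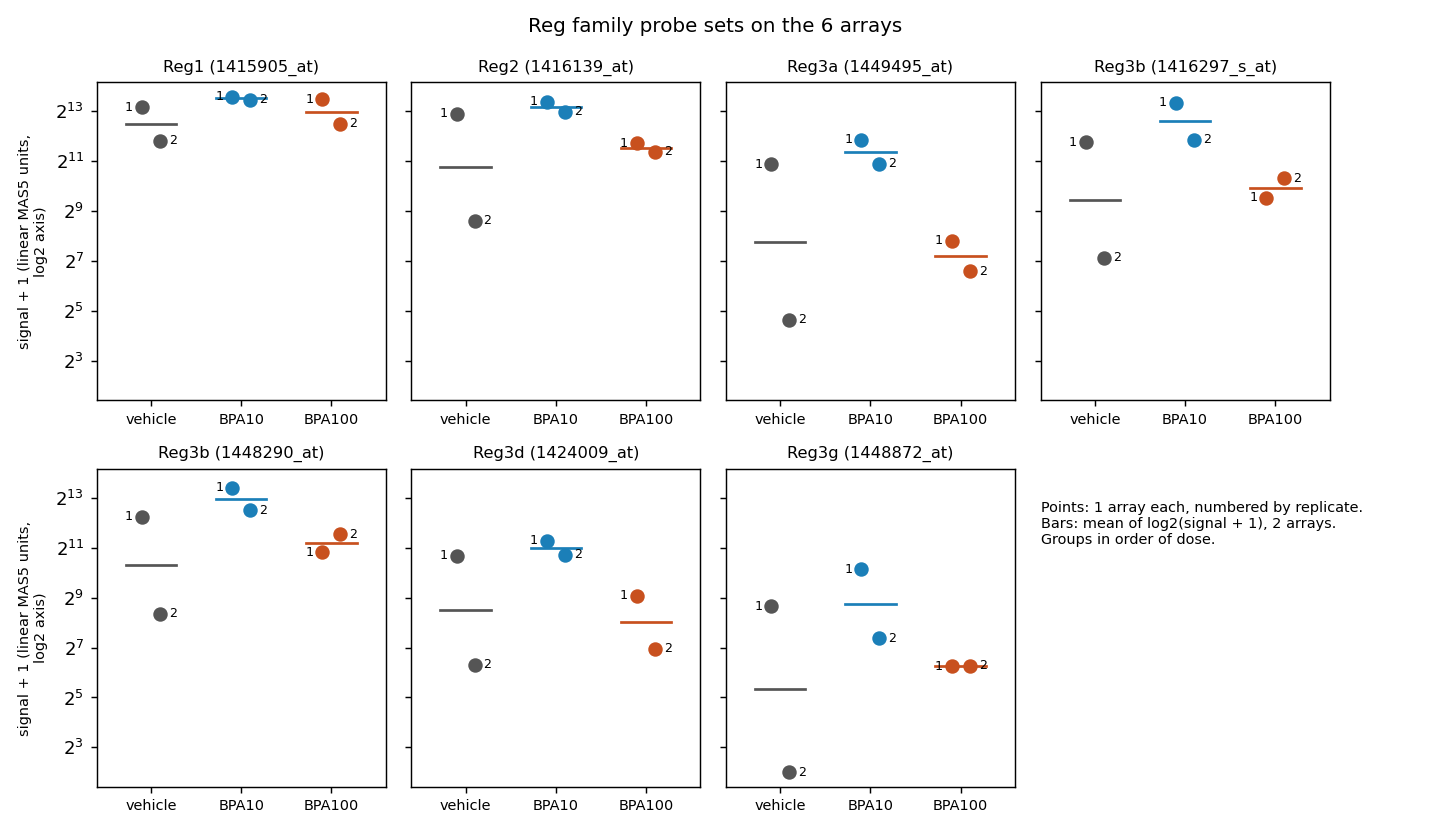
Signal + 1 (linear MAS5 units on a log2 axis) of the 7 Reg probe sets on each of the 6 arrays, by dose group. The dimmer Reg3b probe set is the one ending in _s_at. Points are single arrays numbered by replicate and bars the mean of log2(signal + 1) of 2 arrays. Vehicle replicate 2 is the lowest array in every panel and BPA10 replicate 1 the highest.

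By mean log2 level, BPA10 stood highest for all 7 probe sets. BPA100 came next and vehicle last for Reg1, Reg2, Reg3b and Reg3g, while Reg3a and Reg3d were lower in BPA100 than in vehicle. The neighbours vehicle and BPA100 overlapped for every probe set. Mean signals of Reg2 were 3968 ± 5061 in vehicle, 9298 ± 1800 in BPA10 and 2980 ± 511 in BPA100 (SD, n = 2 each). Those of Reg3a were 947 ± 1305 in vehicle, 2788 ± 1253 in BPA10 and 159 ± 90 in BPA100 (SD, n = 2 each). For both genes the vehicle SD was larger than the vehicle mean, and on the linear scale the means of Reg2, Reg3b (both probe sets) and Reg3g were lower in BPA100 than in vehicle, the opposite of their log2 order.

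In islets of BPA10 offspring all 6 Reg genes were higher on average than in vehicle offspring. The mean difference was 2.61 on the log2(signal + 1) scale. Reg3a differed most, by 3.61 ± 1.57 (moderated SE, n = 2 each) or 12.2-fold, and Reg1 least, by 1.03 ± 0.42 or 2.04-fold. Reg3g differed by 3.42 ± 1.77, Reg3b by 2.65 ± 0.99 (3.16 ± 1.21 by the other probe set), Reg3d by 2.50 ± 1.20 and Reg2 by 2.42 ± 1.06. Both BPA10 arrays exceeded both vehicle arrays for 6 of 7 probe sets, all but Reg3g, against 17.5% of all probe sets tested, a share from which nothing is read here because these values chose the family. After quantile normalization that count was 1 of 7, Reg1 differed by 0.71 and the family mean by 2.45. The margin over vehicle replicate 1 was small: 1902 against 1869 for Reg3a and 1670 against 1628 for Reg3d on the arrays nearest to each other.

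The size of the difference between BPA10 and vehicle depended on which vehicle array was used. Without vehicle replicate 2 the family mean differed by 0.38, and without vehicle replicate 1 by 4.83. In the fit across all probe sets with limma, 0 of 7 Reg probe sets passed (adjusted p from 0.68 to 0.749), as did 0.0% of all probe sets, and 5 of 7 had an unadjusted p under 0.05, against 7.08% of all. All 5 were higher in BPA10 and none lower, against 3.12% and 3.96% of all probe sets, and none of the 7 was lower in BPA10 without overlap, against 18.6%. With vehicle replicate 2 as the only vehicle array, 9 probe sets passed, 4 of them those of Reg2, Reg3a and Reg3b (adjusted p from 0.00118 to 0.0435 in limma, with the single vehicle array assumed to vary like the other groups), from which nothing is read, since these values chose the family. Acinar enzyme genes were higher in BPA10 on the same arrays, 25 of 25, with a mean difference of 1.21 (median 1.04; mean 0.47 without vehicle replicate 2 and 1.94 without vehicle replicate 1). With the acinar list as a covariate, a fit with 2 residual degrees of freedom, the Reg family mean differed by 0.05. Reg3b differed by 0.93 (1.04 by the other probe set) and Reg2 by 0.13. Reg1, Reg3a, Reg3g and Reg3d differed by -0.03, -0.04, -0.11 and -0.55. In that fit 0 of 7 Reg probe sets passed (adjusted p = 0.9996 for each in limma).

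Between BPA100 and vehicle no common direction was seen. Of the 6 genes, 4 were higher and 2 lower in BPA100, with a mean difference of 0.34 on the log2 scale. By mean linear signal 1 gene, Reg1, was higher and 5 were lower in BPA100. On the log2 scale Reg3g differed by 0.93 ± 1.77, Reg3b by 0.88 ± 0.99 (0.48 ± 1.21 by the other probe set), Reg2 by 0.78 ± 1.06 and Reg1 by 0.50 ± 0.42. With a pseudocount of 16 in place of 1, Reg3g differed by 0.04 and the family mean by 0.15. Reg3a differed by -0.56 ± 1.57 and Reg3d by -0.48 ± 1.20. Each of these differences but that of Reg1 was smaller than its SE, and no probe set had arrays without overlap, against 16.1% of all probe sets higher and 15.8% lower. With limma 0 of 7 passed and 0 of 7 had an unadjusted p under 0.05, against 0.0% and 3.98% of all probe sets (2.11% higher and 1.87% lower). The direction depended on the vehicle array: the family mean differed by -1.88 without vehicle replicate 2 and by 2.57 without vehicle replicate 1. Reg2 differed by -1.35 without vehicle replicate 2 and by 2.92 without vehicle replicate 1, where its adjusted p was 0.0203 in limma. That fit has 1 vehicle array, takes its spread from the other groups and uses values that chose the family, so nothing is read from it.

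In islets of BPA100 offspring all 6 genes were lower on average than in BPA10 offspring, with a mean difference of -2.26. The difference was -4.18 ± 1.57 for Reg3a, -2.98 ± 1.20 for Reg3d, -2.49 ± 1.77 for Reg3g, -1.77 ± 0.99 for Reg3b (-2.68 ± 1.21 by the other probe set), -1.64 ± 1.06 for Reg2 and -0.53 ± 0.42 for Reg1. Both BPA100 arrays lay below both BPA10 arrays for 6 of 7 probe sets, all but Reg1, against 15.0% of all probe sets. The differences themselves do not involve the vehicle arrays, although the SEs and p-values come from the fit over all 6 arrays and include the vehicle spread. The family mean stayed between -2.74 and -1.79 when any 1 array was left out. With limma 0 of 7 passed (adjusted p = 0.964 for each; 0.305 for Reg2 and Reg3a without vehicle replicate 1), as did 0.0% of all probe sets, and 2 of 7, Reg3a and Reg3d, had an unadjusted p under 0.05, against 4.75% of all. Both were lower in BPA100, against 2.31% of all probe sets lower and 2.44% higher. Since these values too chose the family, nothing is read from the counts. The BPA10 arrays enter both this comparison and that with vehicle, so the 2 sets of values share them.

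**Figure D2:**
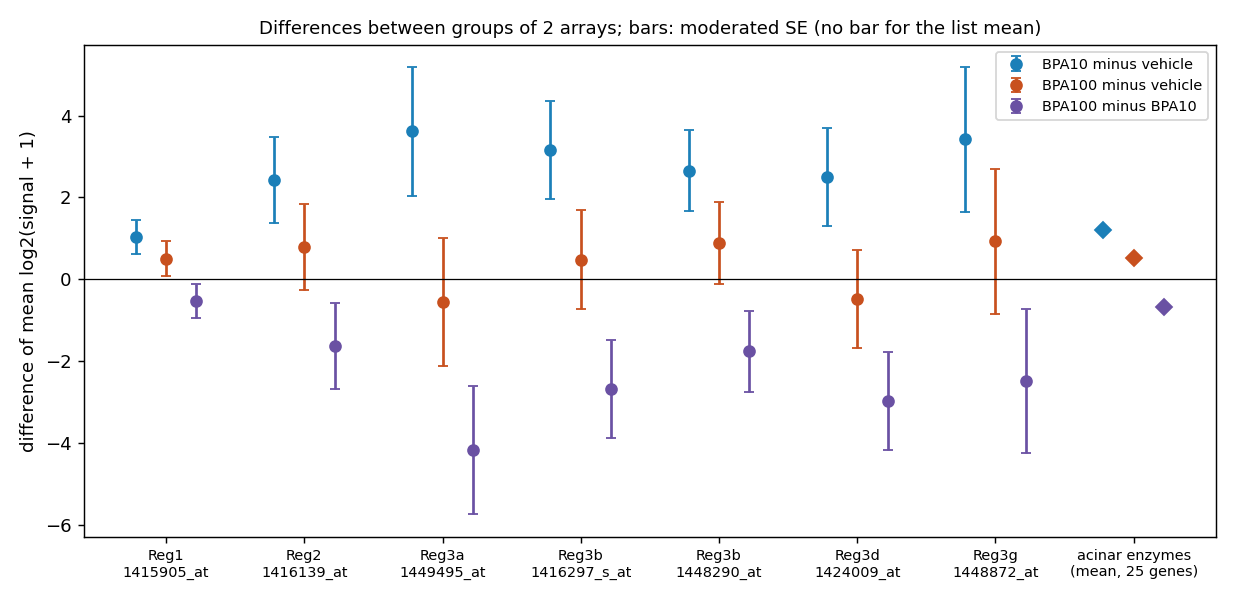
Differences of mean log2(signal + 1) between groups of 2 arrays for each Reg probe set (points, with moderated SE) and the mean over 25 acinar enzyme genes (diamonds, no error bar). BPA10 lies above vehicle and BPA100 below BPA10 for all 7 probe sets, while the bars of BPA100 minus vehicle cross 0 for all but Reg1.

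For every Reg probe set the 2 vehicle arrays stood further apart than the means of BPA10 and vehicle. The vehicle arrays differed by 1.34 on the log2 scale for Reg1, by 4.27 for Reg2, by 3.87 and 4.63 for the Reg3b probe sets, and by 4.37 for Reg3d. Reg3a and Reg3g differed by 6.22 and 6.66, but with signals of 24 and 3 on vehicle replicate 2 the size of these gaps depends on the pseudocount of 1. Of the 27022 probe sets tested, 9 to 13 had a larger gap than Reg2, Reg3b or Reg3d. The BPA10 arrays differed by 0.12 for Reg1 to 2.76 for Reg3g, and the BPA100 arrays by 0.02 for Reg3g to 2.13 for Reg3d. Over the family the vehicle arrays stood 4.46 apart, the BPA10 arrays 0.95 and the BPA100 arrays 0.66. Whether the wide gap goes with vehicle, with the pool of 5 mice against 1 mouse or with the share of acinar tissue cannot be told apart with 2 arrays.

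Reg1 followed the mean of the acinar enzyme list closely, while the other members followed it less closely and varied more. The acinar list, relative to its mean over the 6 arrays, stood at 0.16 and -1.31 on the vehicle arrays, 0.75 and 0.51 on the BPA10 arrays, and 0.52 and -0.64 on the BPA100 arrays. The correlation with this list over the 6 arrays was 0.998 for Reg1, 0.91 for Reg3d, 0.90 for Reg2, 0.87 for Reg3a, 0.84 for Reg3g, and 0.82 and 0.81 for the Reg3b probe sets, all given as descriptions over arrays that share the same scaling. The slope on the acinar list, log2 against log2, was 0.87 for Reg1 and 1.78 (Reg3b) to 3.08 (Reg3a) for the other probe sets. Slopes of single acinar genes were not computed, and some of these genes varied widely as well. Pla2g1b had signals of 1643 and 194 on the vehicle arrays, 3288 and 2603 on the BPA10 arrays, and 2661 and 397 on the BPA100 arrays. A steep slope on the list mean is thus not taken as particular to Reg.

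On 1 pair of arrays, picked after its values were seen, the acinar level was close: 0.52 on BPA100 replicate 1 (1 mouse) and 0.51 on BPA10 replicate 2 (2 mice). The ratios that follow rest on these single arrays, which also differ in dose and pool, and are not repeated evidence. Reg1 was 1.02 times as high on BPA100 replicate 1 as on BPA10 replicate 2. Reg2 was only 0.416 times as high there, Reg3a 0.117, Reg3b 0.312 (0.199 by the other probe set), Reg3d 0.322 and Reg3g 0.461. Relative to the acinar list the family stood at 1.08 and -1.90 on the vehicle arrays, 1.35 and 0.64 on the BPA10 arrays, and -0.84 and -0.33 on the BPA100 arrays. The BPA100 arrays lay below both BPA10 arrays on this scale and between the vehicle arrays. This scale is a plain subtraction, which takes a slope of 1, while the slope of the family on the acinar list was 2.16. Acinar level is thus not fully removed from it. With the acinar list as a covariate the family mean differed by -0.81 between BPA100 and BPA10, by 0.08 for Reg1 and by -0.33 (Reg2) to -2.10 (Reg3a) for the other probe sets. In that fit 0 of 7 Reg probe sets passed (adjusted p from 0.892 to 0.9998 in limma).

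**Figure D3:**
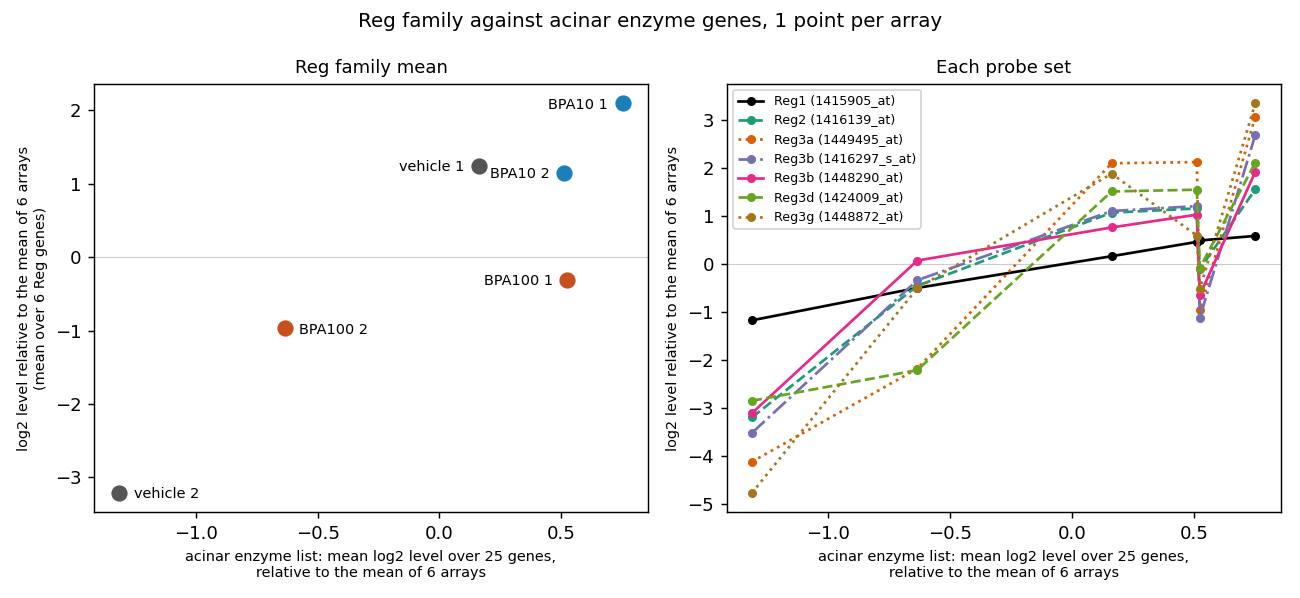
Log2 level relative to the mean of 6 arrays, plotted against the mean log2 level of 25 acinar enzyme genes on the same array. Left, mean over 6 Reg genes, 1 point per array, coloured by group; right, each Reg probe set, with lines joining the arrays in order of acinar level. Reg1 follows the acinar list in a nearly straight line, while the other probe sets drop at BPA100 replicate 1, where the acinar level is 0.52.

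Among themselves the members were alike over the arrays, with correlations of 0.796 to 0.989 in the 21 pairs of probe sets. The Reg3b probe sets were most alike, at 0.989, followed by Reg3a and Reg3d at 0.982. Reg3b and Reg3g, which have the most similar promoters, stood at 0.970 and 0.974 by the brighter and the dimmer Reg3b probe set, and Reg2 and Reg3b at 0.973 by the brighter one. Reg1 had the lowest value with Reg3b. Vehicle replicate 2 was the lowest array for every member and enters all these values.

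**Figure D4:**
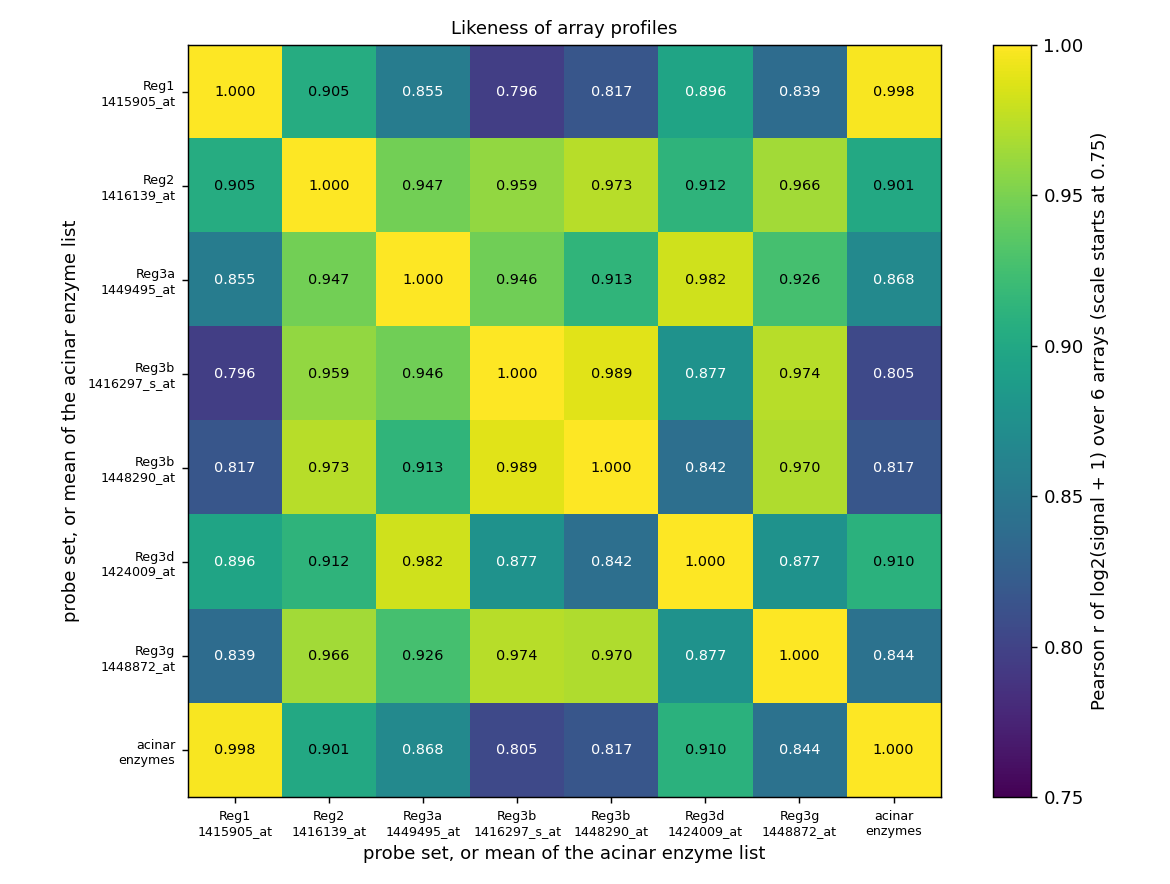
Pearson r of log2(signal + 1) over the 6 arrays between each pair of Reg probe sets and with the mean of 25 acinar enzyme genes (colour scale from 0.75 to 1). Reg1 has r = 0.998 with the acinar enzymes, and the Reg3 and Reg2 probe sets have higher values with each other than Reg1 has with Reg3b.

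Genes that act around the family were described by lists, each gene by its brightest probe set, and none of them passed in limma in any comparison. Over all 13193 genes, an unadjusted p under 0.05 was found for 490 higher and 303 lower in BPA10 than in vehicle, 310 higher and 235 lower in BPA100 than in vehicle, and 219 higher and 349 lower in BPA100 than in BPA10. Extl3, a glycosyltransferase reported as a receptor of Reg proteins, had signals of 204 and 152 on the vehicle arrays, 201 and 203 on the BPA10 arrays, and 220 and 188 on the BPA100 arrays. Reg4, a relative that lies on another chromosome, was dim, at 34 and 25, 42 and 40, and 51 and 21 on the vehicle, BPA10 and BPA100 arrays. Neither showed the wide range of the members.

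Of 16 measured genes of interleukin-6 and interleukin-22 receptor and STAT3 signalling, 11 were higher and 5 lower in BPA10 than in vehicle, with a median difference of 0.07 against 0.02 over all 13193 genes. In BPA100 against vehicle 7 were higher and 9 lower (median -0.08, against -0.00 over all genes), and in BPA100 against BPA10 6 were higher and 10 lower (median -0.05, against -0.02). An unadjusted p under 0.05 was found for 1 gene, lower, in the comparison of BPA10 with vehicle (303 of all 13193 genes were), for 1, higher, in that of BPA100 with vehicle (310 of all) and for 0 in that of BPA100 with BPA10. Among the 4 brightest, the phosphatase gene Ptpn11 and the receptor gene Lifr differed by 0.10 and 0.01 between BPA10 and vehicle, and the kinase gene Jak1 and Stat3 itself by -0.14 and -0.16. Other probe sets gave 0.24 and -0.38 for Ptpn11, -0.02 and -0.94 for Jak1, and 0.39 and 0.06 for Stat3.

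Of 13 measured acute phase and pancreatic injury genes, 8 were higher and 5 lower in BPA10 than in vehicle (median 0.30), 6 and 7 in BPA100 than in vehicle (median -0.02), and 4 and 9 in BPA100 than in BPA10 (median -0.68). At an unadjusted p under 0.05 these were 4 higher and 1 lower in BPA10 than in vehicle (490 and 303 of all 13193 genes), 1 and 2 in BPA100 than in vehicle (310 and 235 of all), and 1 and 5 in BPA100 than in BPA10 (219 and 349 of all). The metallothionein genes Mt1 and Mt2 both differed by 1.13 between BPA10 and vehicle (another probe set of Mt1 gave -0.44), the secreted chaperone gene Clu by 0.66 and the trefoil peptide gene Tff2 by 2.04 ± 0.76. These 4 are the brightest of the list, and others went the other way, of which a pair was picked after their values were seen. Lbp, which encodes the lipopolysaccharide-binding protein, differed by -1.87 ± 0.33 (-1.82 by its other probe set), with signals of 923 and 853 on the vehicle arrays, 159 and 367 on the BPA10 arrays, and 710 and 900 on the BPA100 arrays. Saa3, a serum amyloid gene, differed by -2.36 ± 1.21. Tff2 had signals of 1994 and 364 on the vehicle arrays, 4275 and 2877 on the BPA10 arrays, and 3069 and 905 on the BPA100 arrays, so its vehicle arrays too lay far apart.

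Acinar transcription factors were higher in BPA10 than in vehicle for 5 of 5 measured genes (median 1.10, 3 with an unadjusted p under 0.05 against 490 of all 13193 genes), higher for 3 and lower for 2 in BPA100 than in vehicle (median 0.20), and lower for 5 of 5 in BPA100 than in BPA10 (median -1.12). Ptf1a, the factor that sets acinar identity, had signals of 322 and 30 on the vehicle arrays, 731 and 222 on the BPA10 arrays, and 343 and 100 on the BPA100 arrays. Bhlha15, Xbp1 and Nr5a2 differed by 0.19, 0.46 and 1.10 between BPA10 and vehicle, with other probe sets of Nr5a2 at -0.04 and 0.79. Rbpjl, the dimmest measured gene of the list, was added for its tie to TGGGAA after its values were seen. It differed by 2.46 ± 0.44, with signals of 19 and 12 on the vehicle arrays, 95 and 81 on the BPA10 arrays, and 38 and 17 on the BPA100 arrays. The acinar enzyme genes were higher in BPA100 than in vehicle for 25 of 25 genes (median 0.51, mean 0.52; the mean was -0.22 without vehicle replicate 2, -0.06 without BPA100 replicate 1, 1.26 without vehicle replicate 1 and 1.10 without BPA100 replicate 2) and lower than in BPA10 for 25 of 25 (median -0.57, mean -0.69; the mean was -0.11 without BPA100 replicate 2 and -1.27 without BPA100 replicate 1). At an unadjusted p under 0.05 these were 18 higher in BPA10 than in vehicle (490 of all 13193 genes), 2 higher in BPA100 than in vehicle (310 of all) and 1 lower in BPA100 than in BPA10 (349 of all). The bright enzyme genes Prss2, Cela3b, Cela1 and Cel differed by 0.62, 0.36, 0.61 and 0.95 between BPA10 and vehicle, with other probe sets of Cela3b at 0.68, 0.81 and 0.998.

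Markers of other cell types were read beside the family. Macrophage and myeloid genes (10 measured) summed to 4950 and 1638 on the vehicle arrays, 3152 and 2125 on the BPA10 arrays, and 1707 and 2037 on the BPA100 arrays. The high sum on vehicle replicate 1 came largely from Lyz1 and Lyz2, with signals of 2003 and 803 there, against 261 and 142 on vehicle replicate 2. Ctss and Csf1r gave 738 and 701 on vehicle replicate 1, 426 and 447 on vehicle replicate 2, and 813 and 796 on BPA10 replicate 1. Duct genes (8 measured) summed to 7146 and 8232, 8166 and 7379, and 6639 and 6057 on the vehicle, BPA10 and BPA100 arrays. Stellate and fibroblast genes (12 measured) summed to 8099 and 6388, 12457 and 7301, and 6472 and 4742 on the same groups, highest on BPA10 replicate 1, as for Reg. In BPA100 against BPA10, 9 of 10 macrophage, 8 of 8 duct and 11 of 12 stellate genes were lower, with median differences of -0.37, -0.49 and -0.91, and 1, 4 and 9 of them had an unadjusted p under 0.05. Of all 13193 genes 6986 were lower, 349 of them at an unadjusted p under 0.05. In BPA10 against vehicle 4, 5 and 9 of them were higher, with medians of -0.13, 0.15 and 0.47, and in BPA100 against vehicle 1, 0 and 1, with medians of -0.34, -0.32 and -0.43. Of 3 measured genes of gut epithelium, 1 was higher in BPA10 and 1 in BPA100 than in vehicle, with medians of -0.18 and -0.09, and 2 were higher in BPA100 than in BPA10 (median 0.03). Lyz1 stands in this list and in the macrophage list. Endocrine genes were higher in BPA10 than in vehicle for 10 of 10 and in BPA100 for 8 of 10 (medians 0.31 and 0.16), and lower in BPA100 than in BPA10 for 8 of 10 (median -0.12). At an unadjusted p under 0.05 in limma, 5 were higher in BPA10 than in vehicle (490 of all 13193 genes). None differed in BPA100 against vehicle, and 2 were lower in BPA100 than in BPA10 (349 of all). The brightest of them lie near the top of the scale, which reached higher on the BPA10 arrays than on the vehicle arrays. By its brightest probe set no marker was at 0 on any array, and the part of macrophages, duct and stellate cells in the Reg differences was not tested.

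The 10 genes whose profile was most like the family mean, by Pearson r over the 6 arrays, were B4galt2, Trim71, Iqce, Syngr2, Susd6, Tmem109, Atp6v0b, Jag2, Miga2 and B4galt7, with r between 0.989 and 0.995. Each was taken by its most similar probe set, whereas the medians below take each gene by its brightest. They were picked as the highest r among all tested probe sets of other named genes, so nothing is read from its height. Some were dim, such as Tmem109 with signals of 16 to 41. The measure ignores size: the log2 range of these 10 genes over the arrays was 0.48 to 1.30, against 1.76 for Reg1 and at least 4.76 for the other Reg probe sets. Jag2, a notch ligand, for example, had signals of 111 and 57 on the vehicle arrays, 131 and 106 on the BPA10 arrays, and 94 and 76 on the BPA100 arrays. By the same measure the median r was 0.89 over the acinar enzyme genes, 0.77 over acinar transcription factors, 0.69 over the 2 Reg partners Extl3 and Reg4, 0.64 over acute phase and injury genes, 0.62 over stellate cell and fibroblast genes, 0.60 over macrophage and myeloid genes, 0.46 over endocrine genes, 0.41 over STAT3 signalling genes, 0.06 over duct genes, -0.25 over gut epithelium genes and 0.10 over all other genes.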

How the data were processed

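Per the labels' protocols, islet RNA purified on RNeasy columns went through a 2-cycle Affymetrix amplification that yields biotinylated cRNA. Each deposited number is a linear intensity for a probe set, computed by the authors with MAS5 per the submitters' processing notes (its version is not given in the sources used here). All are whole numbers with a trimmed mean of 150 on each array (lowest and highest 2% left out), so each array had been scaled and levels are relative to the rest of the array. No genome build enters them. Depth does not apply; 2 arrays per group limit the precision (median SE 0.241 on the log2 scale).

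Of 45101 probe sets, 64 controls were left out. The platform annotation gave 1 gene to 34945, several to 932 and none to 9160. Values were taken as log2(signal + 1), which shrinks differences where signals are low, and the 27022 probe sets at or above the 40th percentile of mean log2 level were fitted with limma 3.58.1 in R 4.3.3 (3 group means, all 6 arrays, eBayes with an intensity trend, 3 residual and 5.4 prior degrees of freedom, 2-sided, Benjamini-Hochberg over all, threshold 0.05). The fit was tested on simulated data whose noise was independent between probe sets. Reg and acinar genes here varied together by array, so nothing about them is read from that test. Litters are unnamed, so the p-values reflect array-to-array spread, part of which may be technical.

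A gene of a list is given by its brightest tested probe set. Motifs were searched on both strands and promoters aligned globally with Biopython 1.88 (match 1, mismatch -1, gap opening -2, extension -0.5). Named were every Reg probe set, the 4 brightest genes of the lists that bear on Reg, and the 10 genes with the most similar profile, predicted genes skipped. A few other genes were named after their values were seen. The members, lists and rules were chosen with earlier results of these data known. The alternatives tried were quantile normalization, median centring, a pseudocount of 16, no filter, a 60th percentile filter, no trend, only the groups compared, the replicate number as a block, only arrays of 1 mouse, the acinar list as a covariate, averaging the probe sets of each gene, and leaving out each array. Protein sequences were not used here.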

Additional observations from a re-analysis of the deposited data

How the results depend on the processing

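Across all probe sets limma passed 0 in each comparison. That count stayed 0 in most alternatives. For BPA10 against vehicle it was 1 with only those groups in the fit, and 0 to 9 when 1 array was left out. For BPA100 against vehicle it was 6 after median centring, 2 with the acinar covariate, 4 with only those groups in the fit, and 0 to 5 when 1 array was left out. For BPA100 against BPA10 it was 0 to 1 when 1 array was left out. With the replicate number as a replicate block it was 7 for BPA100 against vehicle and 0 in the other comparisons, with no Reg probe set among them. The labels do not say what a number shares, and the deviations of same-numbered arrays correlated by 0.08 to 0.20 between groups, so the block was used as an alternative only.

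The Reg family mean difference between BPA10 and vehicle was 2.61 and became 0.0543 with the acinar covariate. It ranged from 0.38 to 4.83 when 1 array was left out, and was 5.31 with only arrays of 1 mouse. The latter setting keeps vehicle replicate 2, BPA10 replicate 1 and both BPA100 arrays. The 5.31 is thus a single array against a single array, the highest for the family against the lowest, and no separate check of pool size. Between BPA100 and vehicle the family mean difference was 0.34. It became 0.15 with a pseudocount of 16 (Reg3g 0.04, against 0.93) and -0.76 with the acinar covariate. It ranged from -1.88 to 2.57 when 1 array was left out, and was 2.57 with only arrays of 1 mouse. Both values of 2.57 compare the same arrays, those of BPA100 with vehicle replicate 2, so the second adds nothing to the first. Between BPA100 and BPA10 the family mean difference was -2.26, and it was -0.81 under the acinar covariate. It ranged from -2.74 to -1.79 when 1 array was left out. It was below 0 in all 15 alternatives, but several of them could not change it. Both other filter settings, the replicate block and leaving out a vehicle array gave -2.26 again, because they do not alter the means of these groups. They are not counted as a check. The acinar enzyme mean for BPA10 against vehicle was 1.21. It became 0.96 after quantile normalization and 2.06 with only arrays of 1 mouse, again BPA10 replicate 1 against vehicle replicate 2. Without 1 array it ranged from 0.47 to 1.94 there, from -0.22 to 1.26 for BPA100 against vehicle and from -1.27 to -0.11 for BPA100 against BPA10. The counts of probe sets whose arrays did not overlap were varied as alternatives chosen after seeing the data: the 6 of 7 for BPA10 over vehicle became 1 after quantile normalization, and the 6 of 7 for BPA100 under BPA10 became 7. The acinar covariate is built from the same arrays and leaves 2 residual degrees of freedom. The cause of these shifts was not tested.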

Other observations

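Reg probe sets were among those with the widest range over the 6 arrays. Of the 25 probe sets with the largest difference between the highest and lowest array on the log2 scale, 6 were Reg probe sets, although the exact ranges of Reg3g and Reg3a depend on the pseudocount, since their lowest signals were 3 and 24. The other named genes among the widest 10, chosen after their values were seen, were H2-Q2 and H2-Ea, genes of the major histocompatibility complex that differ between mouse haplotypes, Saa3, an acute phase gene, and Klk1b11, a kallikrein gene. Saa3 had signals of 705 and 26 on the vehicle arrays, 29 and 23 on the BPA10 arrays, and 5 and 9 on the BPA100 arrays, high on vehicle replicate 1 alone. Nupr1, a stress gene first described in pancreatitis, had 2367 and 119 on the vehicle arrays, 3498 and 1504 on the BPA10 arrays, and 1665 and 497 on the BPA100 arrays. Cckar, the receptor for cholecystokinin on acinar cells, had 440 and 43, 1119 and 721, and 525 and 138 on the same vehicle, BPA10 and BPA100 arrays. Nupr1 and Cckar, picked from the widest 25 after their values were seen, thus had vehicle replicate 2 lowest and BPA10 replicate 1 highest, as the Reg genes did. The acinar list mean had the same lowest and highest arrays. Others of the 25 did not: Tmed11 was highest on vehicle replicate 1 (401) and Lefty1 on BPA100 replicate 2 (138).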
